A study of Mus musculus with 18 samples.

Results

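The first day after removal of an early Wnt pulse was examined in mouse gastruloids, 3 libraries of 72 h against 3 libraries of 48 h. Gastruloids are balls of embryonic stem cells grown in suspension, where they break symmetry, elongate and form tissues of the germ layers. The 6 libraries are those labelled early at these ages, of 18 libraries in the study. Both groups were wild-type (WT) cells of the strain 129/SVEV that had received CHIR, which blocks the kinase GSK3 and thereby switches on Wnt/β-catenin signalling, between 24 and 48 h after aggregation. The early 72 h group had thus been without CHIR for a day, and the early 48 h group was collected when the pulse ended. The groups differ in age as well as in time since CHIR, and these cannot be told apart in this step. Values from early gastruloids of 96 h and from the control arm are set beside them. The control arm received CHIR between 48 and 72 h, so its 96 h group was a day past the pulse, its 72 h group marked the end of the pulse and its 48 h group was untreated. Each RNA came from a pool of gastruloids of its condition, and nothing in the labels tells if libraries of 1 group were grown in separate cultures. The p-values are therefore set against the scatter within groups over all 18 libraries, control libraries included, and part or all of that scatter may be technical.

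In Wnt/β-catenin signalling, a ligand bound to a Frizzled receptor and an LRP co-receptor halts the complex of Axin, APC and GSK3 that marks β-catenin for breakdown. Stabilised β-catenin then works with TCF and LEF factors on target genes, several of which encode inhibitors of the pathway and so form negative feedback. In mouse embryonic stem cells GSK3 inhibition is known to help sustain naive pluripotency, and in the post-implantation epiblast Wnt signalling is known to induce Brachyury (T) and the primitive streak.

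Expression is given in CPM (read counts scaled to a common library size after TMM adjustment) and changes as log2 fold changes ± SE, 72 h over 48 h, with n = 3 libraries per group throughout. Total counts were 20041201, 24536538 and 16699284 in the early 72 h libraries, against 21875204, 17385560 and 18512279 in the early 48 h libraries. Pairs of replicates differed in their counts, with a chi-square statistic of 1.41 to 3.32 per degree of freedom at 72 h and 2.09 to 3.84 at 48 h, so none matched within sampling noise. The 3 control libraries numbered 3 stood apart from their own groups, at 15.4 to 28.1, against 1.41 to 7.90 for the other pairs of the study. They enter the estimate of the spread for every gene, and results that depend on them are named below. Fold changes say nothing of which cells changed: in bulk RNA, fewer cells of a type and less RNA per cell cannot be told apart.

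The libraries fitted their labels. Axin2, a feedback inhibitor that is a standard readout of Wnt signalling, averaged 120 CPM at early 48 h and 12.7 CPM in untreated gastruloids of 48 h, a log2 difference of 3.25 ± 0.07 (edgeR adjusted p = 1.1e-15). T, the streak factor Brachyury, was higher at early 48 h than in the untreated group by 6.12 ± 0.33 log2 (edgeR adjusted p = 4.75e-11). The pluripotency factor Pou5f1 was at 1324, 1337 and 1334 CPM in early 72 h libraries, against 1300, 1303 and 1309 CPM in early 48 h libraries. These values lay close together and did not pass the test. T, at 24.7 CPM at early 72 h and 40.6 CPM at early 48 h, was low beside its 1048 CPM in control gastruloids of 72 h.

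Of 16041 genes tested, 6837 (42.6%) passed an adjusted p of 0.05 (edgeR quasi-likelihood F test, Benjamini-Hochberg adjustment). Of these, 3327 rose (20.7% of the genes tested) and 3510 fell (21.9%). Rises were larger than falls, with a median log2 fold change of 0.64 among risen genes and -0.32 among fallen ones. At least 2-fold rises numbered 931 (5.8%) and at least 2-fold falls 449 (2.8%). The libraries did not overlap for 4630 genes that were higher at 72 h (28.9%) and 5000 that were lower (31.2%). More genes of low level rose than fell, and the reverse held for genes of high level. Of 2879 genes with a mean of 1 to 5 CPM, 767 rose and 336 fell, while of 2446 genes above 100 CPM, 274 rose and 1069 fell. The split between directions depended on the scaling. Risen genes made up 48.7% of the called genes with TMM, 67.2% when counts were scaled to library totals alone, and 69.3% to 72.0% in 3 fits of the FPKM values. With total counts, an alternative that was not planned, 4447 genes rose and 2170 fell. The percentages of genes that rose and fell with TMM are the background for every gene list that follows.

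**Figure D1:**
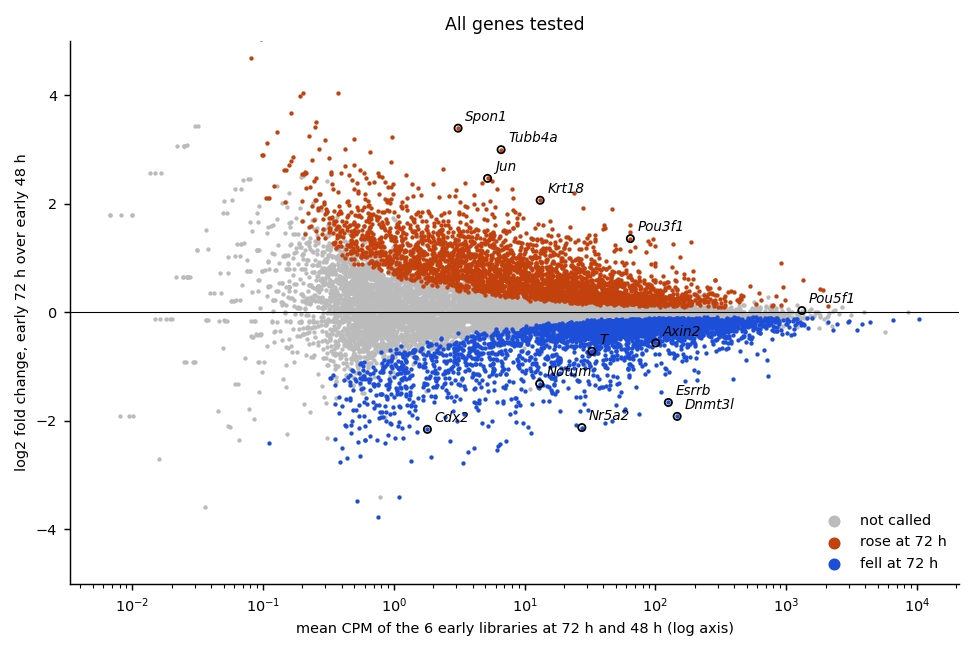
Log2 fold change of each tested gene, early 72 h over early 48 h, against its mean level in the 6 early libraries in CPM on a log axis. Each point is a gene, coloured by whether it rose, fell or did not pass an adjusted p of 0.05; 2 genes lie outside the plotted range of 5 log2 units either way, and called rises extend further from 0 than called falls.

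Wnt feedback and target genes did not move as a block. Of 18 members, 7 fell and 4 rose, with a median log2 fold change of -0.07, against -0.0026 over all genes tested. Axin2 was at 79.4, 82.1 and 81.6 CPM in 72 h libraries, against 119, 117 and 125 CPM in 48 h libraries. The groups did not overlap, and Axin2 fell by 0.57 ± 0.06 log2 (edgeR adjusted p = 1.08e-06). At 81.0 CPM on average it was still well above the 12.7 CPM of untreated gastruloids. Sp5, a transcription factor and direct Wnt target, had 4.76, 4.24 and 4.35 CPM at 72 h, against 8.07, 6.75 and 12.9 CPM at 48 h. All 72 h libraries lay below all 48 h libraries, and Sp5 fell by 1.05 ± 0.19 log2 (edgeR adjusted p = 0.000332). It had 0 counts in the untreated group.

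Other target genes fell too, among them inhibitors of the pathway. Notum, an enzyme that removes the lipid of Wnt ligands, had 7.79, 7.29 and 7.33 CPM at 72 h, against 18.9, 17.6 and 19.3 CPM at 48 h. The 3 libraries of 72 h were close to each other and far below those of 48 h (log2 fold change -1.32 ± 0.27, edgeR adjusted p = 0.000786). Tnfrsf19, a receptor of the tumour necrosis factor family and Wnt target, was at 55.5, 53.5 and 52.4 CPM, against 85.3, 79.2 and 81.8 CPM. It fell without overlap, by 0.61 ± 0.08 log2 (edgeR adjusted p = 1.16e-05). Znrf3, a ubiquitin ligase that clears Frizzled receptors, fell by 0.45 log2 (edgeR adjusted p = 0.000769). Cdx1, a caudal homeobox gene, had 0.843, 0.937 and 0.775 CPM at 72 h, against 6.62, 5.71 and 5.49 CPM at 48 h. Its fall of 2.78 log2 was the largest of the list (edgeR adjusted p = 0.0116). Lef1, a nuclear partner of β-catenin, was at 109, 107 and 103 CPM at 72 h, against 138, 125 and 147 CPM at 48 h. Lef1 fell by 0.36 ± 0.10 log2 (edgeR adjusted p = 0.01), but without replicate 3 of 48 h its adjusted p was 0.0514 (8.79e-08 to 0.558 over 18 alternatives, with the highest in the fits of FPKM).

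The 4 members that rose were Nkd2, which encodes a Dishevelled-binding inhibitor (log2 fold change 0.86), the transcription factor Sp8 (0.45), the cyclin Ccnd1 (0.26) and Tcf7 (0.13), with edgeR adjusted p-values of 0.00677, 0.00598, 0.0101 and 0.0357. Sp8 is closely related to Sp5, and the pair moved in opposite directions: Sp8 had 26.7, 25.3 and 25.6 CPM at 72 h, against 17.9, 18.3 and 20.7 CPM at 48 h. Tcf7 lost its call when any 1 of 5 libraries was left out (adjusted p 0.0453 to 0.124). Nkd1, Dkk1, Lgr5, Rnf43, Fgf8, Bmp4 and Ascl2 did not pass the test.

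**Figure D2:**
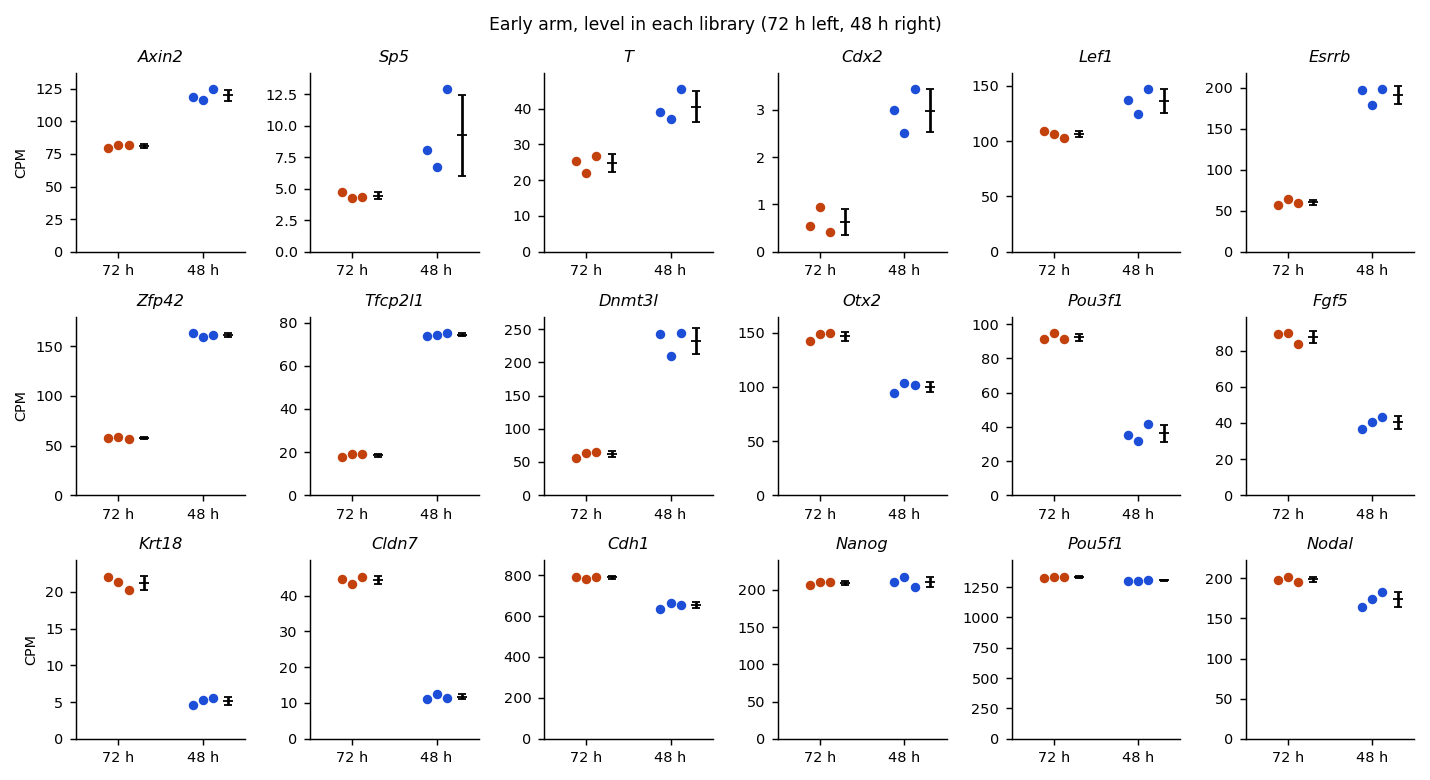
CPM of 18 genes in each early library, with 72 h left of 48 h in every panel; points are libraries and the bar with its whisker is the mean ± SD of 3. Axin2, Sp5, T, Cdx2 and the naive factors lie lower at 72 h, Otx2, Pou3f1, Fgf5, Krt18 and Cldn7 lie higher, and Nanog and Pou5f1 overlap or nearly so.

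The sequence before the start of these genes was searched for the core motif of TCF and LEF factors, spelled CTTTGAA or CTTTGAT and read on both strands. Windows were the 250 bases before each start in the promoter table made from RefSeq for GRCm38.p6, and 12 of the 18 list members matched by symbol. The motif stood in 4 of those 12 windows, in 755 of 11572 tested genes with a window (6.52%), in 34 of 282 that fell at least 2-fold (12.1%) and in 45 of 639 that rose at least 2-fold (7.04%). A match is a description of the letters and not a site of binding. Axin2, Lef1, Cdx2 and Evx1 held no match in these windows. In the streak list, to which T belongs, 3 of 14 genes with a window held the motif (21.4%). The windows of Sp5, Tnfrsf19 and T are shown because these 3 genes fell and each holds a match, in capitals. They were picked on both counts, so they cannot show if matches and falls go together. Other list members with a match are not shown. In Sp5, at chr2:70474673-70474922 on the plus strand, the match lies 104 to 98 bases before the start. For Tnfrsf19, at chr14:61037988-61038237 on the minus strand, it lies 202 to 196 bases before the start and reads on the opposite strand. In T, at chr17:8434173-8434422 on the plus strand, it lies 235 to 229 bases before the start and also reads on the opposite strand. Each is printed 5′ to 3′ in the direction of the gene.
Sp5: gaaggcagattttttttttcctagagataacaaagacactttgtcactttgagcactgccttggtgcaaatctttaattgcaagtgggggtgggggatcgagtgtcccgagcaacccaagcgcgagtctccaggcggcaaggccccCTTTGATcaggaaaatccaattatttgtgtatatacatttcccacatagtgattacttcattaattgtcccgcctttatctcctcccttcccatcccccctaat
Tnfrsf19: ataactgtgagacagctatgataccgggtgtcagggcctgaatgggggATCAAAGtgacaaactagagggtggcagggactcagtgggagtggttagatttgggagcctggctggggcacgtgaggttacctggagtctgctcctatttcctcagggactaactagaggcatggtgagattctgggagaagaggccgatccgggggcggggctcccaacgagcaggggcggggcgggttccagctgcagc
T: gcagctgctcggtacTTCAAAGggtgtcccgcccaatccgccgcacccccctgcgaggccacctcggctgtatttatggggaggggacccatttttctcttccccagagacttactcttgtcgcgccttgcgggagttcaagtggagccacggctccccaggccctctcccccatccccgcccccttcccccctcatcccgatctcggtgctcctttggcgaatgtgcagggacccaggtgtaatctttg

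More receptors of the pathway rose than fell. Of 15 receptors and co-receptors, 6 rose and 2 fell, with a median log2 fold change of 0.25. Fzd2, a Frizzled receptor, had 37.1, 37.2 and 33.9 CPM at 72 h, against 15.6, 15.3 and 17.6 CPM at 48 h. The groups were far apart, and Fzd2 rose by 1.16 ± 0.12 log2 (edgeR adjusted p = 6.11e-07), back toward the 45.4 CPM of untreated gastruloids. Fzd1, Fzd6, Fzd3, Lrp5 and Ryk also rose, by 0.87, 0.68, 0.60, 0.48 and 0.32 log2. Fzd10 and Ror2 fell by 0.47 and 0.26 log2 (edgeR adjusted p = 0.0246 and 0.0207). Either call was lost when any 1 of 4 libraries was left out (adjusted p 0.0419 to 0.0785 for Fzd10 and 0.0145 to 0.093 for Ror2). Among 12 measured ligands, 2 rose and 1 fell: Wnt5b fell by 0.53 log2, while the rises of Wnt4 and Wnt9a came from levels under 2 CPM. Wnt3, the ligand that starts the streak in the mouse embryo, had 16.8, 18 and 16.4 CPM at 72 h, against 12, 11.3 and 14.8 CPM at 48 h, with no overlap. It did not pass in the fit of all libraries (edgeR adjusted p = 0.124). Wnt3 passed without the 3 control libraries numbered 3, at an adjusted p of 0.000623 (0.000158 to 0.289 over 18 alternatives). Of the secreted inhibitors, Dkk4 fell by 2.31 ± 0.42 log2 at 0.397, 0.326 and 0.298 CPM, against 1.79, 1.41 and 1.95 CPM (edgeR adjusted p = 0.000338). Sfrp1 and Sfrp2 rose by 0.55 and 0.61 log2, and Frzb rose from levels under 1 CPM, with a call lost without replicate 1 or 3 of 48 h (adjusted p 0.0297 to 0.0655 over 6 such fits). β-catenin itself, Ctnnb1, was 0.12 log2 higher (edgeR adjusted p = 0.0121), and Tcf7l2 rose by 0.57.

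Streak genes gave few calls, all of them falls, and caudal genes went both ways. Of 16 streak genes, 4 fell and 0 rose by edgeR, where 21.9% of all tested genes fell and 20.7% rose. The median log2 fold change of the 16 was -0.03. Without regard to the test, all 72 h libraries lay above all 48 h libraries for 4 members and below them for 5. At an unadjusted p under 0.05, 5 were lower and 0 higher, and DESeq2 called 4 lower and 0 higher. T was at 25.5, 21.9 and 26.9 CPM in 72 h libraries, against 39.2, 37.2 and 45.4 CPM in 48 h libraries. Without overlap, T fell by 0.72 ± 0.18 log2 (edgeR adjusted p = 0.00316). Snai1, a repressor of E-cadherin, fell by 1.07 log2 (edgeR adjusted p = 0.0032). Evx1, a homeobox gene of the posterior streak, fell by 1.25 log2 (edgeR adjusted p = 0.0153), and leaving out a library ended that call in 3 of 6 cases (adjusted p 0.0112 to 0.0645). Cdx2, a caudal factor that acts on Hox genes, was at 0.546, 0.937 and 0.417 CPM at 72 h, against 3.00, 2.52 and 3.43 CPM at 48 h. Cdx2 fell by 2.16 ± 0.55 log2 (edgeR adjusted p = 0.0042). Of 15 caudal and tailbud genes 5 fell and 3 rose; the rises were in Cyp26a1, which breaks down retinoic acid, in Greb1 and in Sp8. Mixl1, Fgf8, Foxa2 and Lhx1 did not pass. The T-box factor Eomes, with 43.0, 44.4 and 38.5 CPM at 72 h and 33.8, 35.2 and 37.9 CPM at 48 h, did not pass (edgeR adjusted p = 0.627, and 0.00089 to 0.761 over 18 alternatives, 4 of which called it higher).

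None of the 24 measured Hox genes of groups 1 to 9 passed by edgeR, and none had an unadjusted p under 0.05. DESeq2 called none of them, but gave no p-value for 4, Hoxb1, Hoxb2, Hoxa7 and Hoxc8. Hoxb1, the group 1 gene that opens the HoxB series, had 5.85, 5.13 and 7.27 CPM at 72 h, against 16.5, 16 and 15.7 CPM at 48 h. These values do not overlap, with a log2 fold change of -1.42 ± 0.68 (edgeR adjusted p = 0.1). Fitted with the 6 early libraries alone, Hoxb1 had an adjusted p of 8.26e-10, and without the 3 control libraries numbered 3 it had 1.03e-05 (range over 17 alternatives 7.17e-50 to 0.248). Of the 12 genes of groups 5 to 9, all but Hoxa7 stayed under 1 CPM in every early library.

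The naive pluripotency genes gave the most uniform change. Of 17 genes, 15 fell and 0 rose by edgeR, with a median log2 fold change of -1.14, where 21.9% of all tested genes fell. At an unadjusted p under 0.05, 16 were lower and 0 higher, and DESeq2 called 14 lower and 0 higher. Their summed level was 924 to 979 CPM at 72 h and 1707 to 1739 CPM at 48 h. Nr5a2, an orphan nuclear receptor that binds the Pou5f1 gene, was at 10.3, 11.1 and 9.12 CPM, against 46.5, 44.6 and 42.9 CPM. Its fall of 2.13 ± 0.13 log2 was the largest of the list (edgeR adjusted p = 1.99e-09). Tfcp2l1, a transcription factor downstream of GSK3 inhibition, had 17.6, 19.1 and 18.9 CPM at 72 h, against 73.6, 74.5 and 75.2 CPM at 48 h. Replicates agreed within 2 CPM, and Tfcp2l1 fell by 2.01 ± 0.09 log2 (edgeR adjusted p = 1.1e-10). Esrrb, a nuclear receptor known to be relieved from repression by Tcf7l1 when GSK3 is inhibited, was at 57.2, 63.7 and 59.9 CPM, against 197, 178 and 198 CPM. Esrrb fell by 1.66 ± 0.10 log2 (edgeR adjusted p = 2.57e-09). Zfp42, the marker Rex1, had 57.8, 58.9 and 57.0 CPM, against 163, 159 and 161 CPM. The fall was 1.48 ± 0.07 log2 (edgeR adjusted p = 2.48e-10).

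Further members fell by less or were measured at low counts. Nr0b1, Morc1, Tbx3 and Tcl1 fell by 1.83, 1.54, 1.51 and 1.41 log2, Klf5 by 0.90 and Klf2 by 0.83 (edgeR adjusted p = 0.000404 for Klf2). Klf4, at 3.47 CPM on average at 72 h and 4.77 CPM at 48 h, fell by 0.47 log2 but lost its call in 5 of 6 fits without 1 library (adjusted p 0.00629 to 0.172). The call of Prdm14 (log2 fold change -0.90) was lost in 2 of those 6 fits (0.0175 to 0.073). Dppa3 and Gbx2 were the members that did not pass. Of the 17, 12 were higher at early 72 h than in untreated gastruloids and 1, Sox15, was lower (edgeR): at 72 h Esrrb averaged 60.3 CPM and Tfcp2l1 18.5 CPM, where the untreated group had 16.1 and 7.5 CPM. The share of all tested genes that differed in this contrast is not given here, so the counts describe the list alone.

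General pluripotency genes gave fewer and smaller calls. Nanog was at 207, 211 and 210 CPM at 72 h, against 210, 218 and 204 CPM at 48 h, overlapping, with a log2 fold change of -0.01 ± 0.11 (edgeR adjusted p = 0.951). Pou5f1 differed by 0.03 ± 0.22 log2 (edgeR adjusted p = 0.929). Sox2, also a neural factor, had 144, 148 and 153 CPM at 72 h, against 218, 196 and 252 CPM at 48 h. Its fall of 0.58 log2 passed narrowly (edgeR adjusted p = 0.0452) and did not pass in any of the 6 fits without 1 library (0.0507 to 0.153). Of the 11 members 5 fell and 0 rose by edgeR; 1 was higher and 5 lower at an unadjusted p under 0.05, and DESeq2 called 0 higher and 4 lower. That order of directions reversed with the scaling, with 3 rises and 2 falls when counts were scaled to totals and 1 rise and 0 falls in each fit of FPKM. Dppa2, Dppa4, Trim71 and Zfp281, the other members that fell with TMM, did not pass on FPKM. The list summed to 4418 to 4538 CPM at 72 h, and of all tested genes above 100 CPM 43.7% fell.

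The enzymes of DNA methylation moved apart. Dnmt3l, the catalytically inactive partner of the methyltransferases, was at 56.2, 63.6 and 64.3 CPM at 72 h, against 243, 210 and 244 CPM at 48 h. The values did not overlap, and Dnmt3l fell by 1.92 ± 0.10 log2 (edgeR adjusted p = 5.07e-10). Dnmt3b, a de novo methyltransferase, had 2213, 2199 and 2169 CPM, against 1626, 1703 and 1628 CPM, and rose by 0.41 ± 0.07 log2 (edgeR adjusted p = 0.000102). Dnmt3a averaged 635 and 609 CPM and did not pass. The maintenance pair Dnmt1 and Uhrf1 fell by 0.35 and 0.50 log2. Among the dioxygenases that oxidise methylcytosine, Tet2 and Tet1 fell by 1.16 and 0.72 log2 (edgeR adjusted p = 0.000122 and 0.000286) and Tet3 rose by 0.43. In all, 6 of 10 enzymes fell and 2 rose.

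Formative and primed epiblast genes rose while the naive genes fell. Of 17 members 9 rose and 3 fell, with a median log2 fold change of 0.41. Pou3f1, the POU factor Oct6, had 91.2, 94.9 and 91.6 CPM at 72 h, against 35.3, 31.7 and 41.6 CPM at 48 h. It rose by 1.35 ± 0.09 log2 (edgeR adjusted p = 6.77e-09), yet stayed under the 281 CPM of untreated gastruloids. Sall2, a zinc finger factor of the primed state, had 138, 141 and 132 CPM, against 53.9, 55.2 and 52.7 CPM (log2 fold change 1.34, edgeR adjusted p = 5.3e-07). Fgf5, a ligand that marks the post-implantation epiblast, was at 89.3, 89.7 and 83.8 CPM, against 36.7, 40.8 and 43.5 CPM. It rose by 1.12 ± 0.24 log2 (edgeR adjusted p = 0.00124). Otx2, a homeobox factor of the formative and anterior epiblast, was at 142, 148 and 150 CPM, against 94.3, 104 and 102 CPM. The groups did not overlap, and Otx2 rose by 0.56 ± 0.15 log2 (edgeR adjusted p = 0.00523). Sox3, Zic2 and Foxd3 rose by 1.19, 1.02 and 0.77 log2, and Zic5 by 0.41. Lef1 and Grhl2 were among the members that fell. Grhl2, an epithelial factor, fell by 0.28 log2 and lost its call on FPKM.

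Ligands of the FGF and TGF-β families changed in part. Besides Fgf5, Fgf15, Fgf13 and Fgf3 rose, and Fgf4, an autocrine ligand of pluripotent cells, was 0.26 log2 higher with a call that held in none of the 6 fits without 1 library (0.0561 to 0.0799). Fgfr4 and Fgfr2 fell by 0.85 and 0.34 log2; the call of Fgfr2 was lost without replicate 1 of 48 h or without replicate 2 or 3 of 72 h (0.00889 to 0.119 over 6 such fits). Of the 12 ERK feedback genes, 3 rose and 3 fell, all by under 0.60 log2. Nodal was at 199 CPM at 72 h and 174 CPM at 48 h on average, with a log2 fold change of 0.19 ± 0.18 (edgeR adjusted p = 0.407). Both Nodal and its inhibitor Lefty1 passed with the 6 early libraries alone, at adjusted p-values of 4.35e-05 and 5.97e-06 (ranges over 18 alternatives 2.37e-05 to 0.603 and 7.58e-09 to 0.398). Gdf3, a ligand that works with Nodal, had 49.5, 47.2 and 50.6 CPM, against 85.7, 89.1 and 83.1 CPM. Gdf3 fell by 0.81 ± 0.12 log2 (edgeR adjusted p = 2.71e-05), while Furin, a protease that matures Nodal, rose by 0.81 (edgeR adjusted p = 3.29e-06).

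BMP and retinoic acid genes went both ways. Of 18 measured BMP genes 6 rose and 2 fell. Smad6, an inhibitor of BMP signalling that is also its target, rose by 1.16 log2 (edgeR adjusted p = 4.06e-05), and Id4, an inhibitor of differentiation, fell by 1.25. Bmp4, Bmp7 and Id3 did not pass. Crabp2, which carries retinoic acid to the nucleus, had 15.9, 18 and 16 CPM at 72 h, against 7.20, 8.04 and 7.67 CPM at 48 h. It rose by 1.13 ± 0.16 log2 (edgeR adjusted p = 2.09e-05). The receptor Rara fell by 0.66 log2 (edgeR adjusted p = 0.000123). In all, 4 of 12 retinoic acid genes rose and 2 fell. Of 14 measured genes of definitive endoderm and the organizer 4 rose and 1 fell, with Cer1, Gsc, Foxa1 and Sox17 under 1 CPM. Over all tested genes 20.7% rose and 21.9% fell.

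Genes of epithelial adhesion rose together. Of 18 members 15 rose and 1, Grhl2, fell, with a median log2 fold change of 0.81, against 20.7% of all tested genes that rose. Their summed level was 2074 to 2087 CPM at 72 h and 1609 to 1650 CPM at 48 h. Markers of extraembryonic endoderm, itself an epithelium with simple keratins and claudins, rose in 11 of 17 cases over the same step, at a summed level of 907 to 949 CPM at 72 h and 916 to 989 CPM at 48 h. Afp was under 1 CPM and Hnf4a fell, and the part of that tissue in the epithelial rise was not tested. Krt18, a keratin of simple epithelia, had 22.1, 21.3 and 20.3 CPM, against 4.54, 5.22 and 5.55 CPM. The groups did not overlap, and Krt18 rose by 2.06 ± 0.15 log2 (edgeR adjusted p = 2.15e-08). Its partner Krt8 rose by 1.74 log2. Cldn7, a claudin of tight junctions, was at 44.5, 43.1 and 45.3 CPM, against 11.2, 12.5 and 11.5 CPM. It rose by 1.92 ± 0.13 log2 (edgeR adjusted p = 7.88e-09). Cldn3 and Cldn6 rose by 2.10 and 1.30 log2, the polarity gene Crb3 by 1.81 and occludin (Ocln) by 1.05. Cdh1, E-cadherin, had 793, 782 and 794 CPM, against 637, 665 and 655 CPM, without overlap. Its log2 fold change of 0.28 ± 0.16 did not pass in the fit of all libraries (edgeR adjusted p = 0.175) and passed with the 6 early libraries alone, at 1.25e-08 (1.25e-08 to 0.302 over 18 alternatives).

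The mesenchymal list split evenly, with 5 rises and 5 falls among 12 measured genes. Fn1, fibronectin, had 428, 458 and 449 CPM at 72 h, against 1025, 1022 and 951 CPM at 48 h. It fell without overlap, by 1.17 ± 0.24 log2 (edgeR adjusted p = 0.000768). Fn1 makes up most of the list's sum, which was 558 to 578 CPM at 72 h and 1107 to 1183 CPM at 48 h. Zeb1 and vimentin (Vim) fell by 0.98 and 0.66 log2. Zeb2, Twist1, Cdh11, Prrx2 and Prrx1 rose from low levels, Zeb2 by 0.85 log2 at 17.0, 16.3 and 14.3 CPM, against 8.27, 10.6 and 7.61 CPM. Prrx1 rests on 11 counts at 72 h and 2 at 48 h, a ratio of 4.87 with a 95% counting interval of 1.06 to 45.2. Basement membrane genes also went both ways, 7 up and 3 down of 15: the collagen IV chains Col4a1 and Col4a2 rose by 0.78 and 0.86 log2 and the integrin Itga3 by 0.94, and Nid2 and Lamc1 fell by 0.51 and 0.37.

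**Figure D3:**
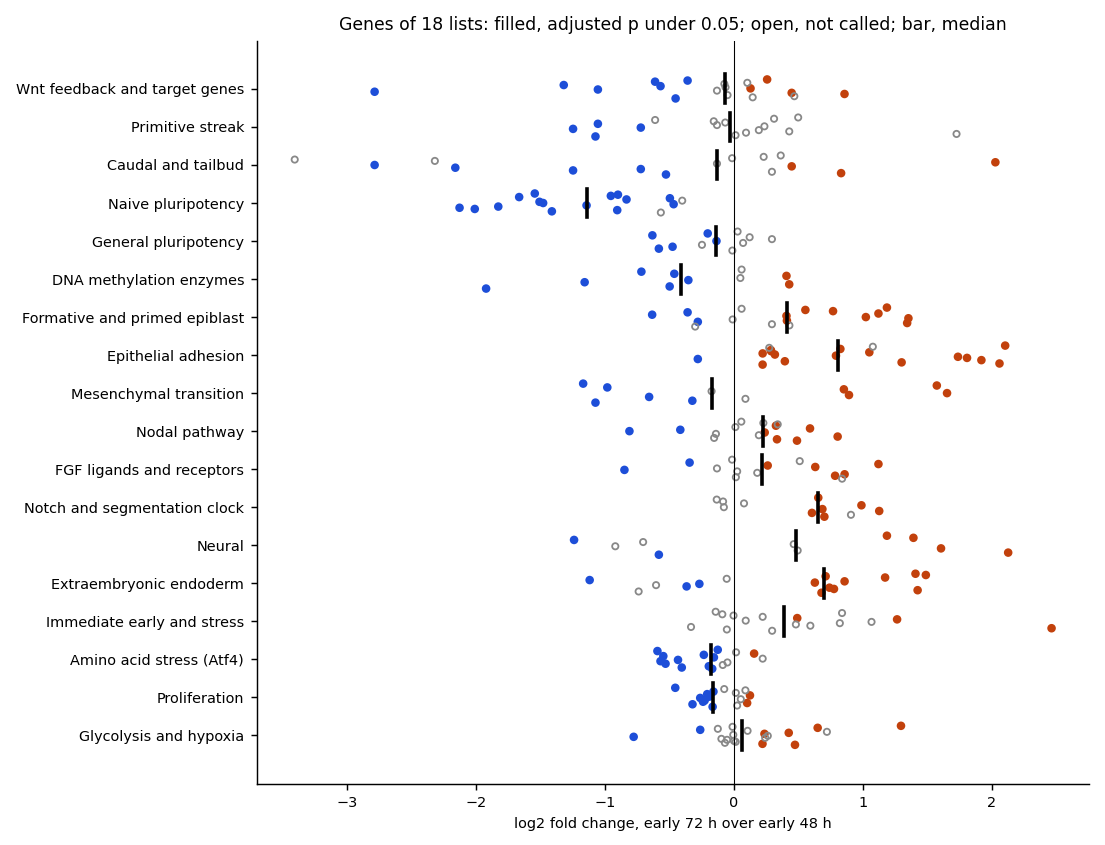
Log2 fold change, early 72 h over early 48 h, of the members of 18 gene lists. Filled points passed the test and open points did not, the bar is the list's median, and 7 points resting on 3 counts or fewer are not drawn; the naive list lies below 0 throughout and the epithelial list almost wholly above it.

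Markers of other cell types differed in level and direction, and their part in these results was not tested. For extraembryonic endoderm, 11 of 17 measured genes rose and 3 fell, with a summed level of 907 to 949 CPM at 72 h and 916 to 989 CPM at 48 h. Dab2 and Cubn, which take up ligands from the fluid around visceral endoderm, rose by 1.41 and 1.17 log2 (edgeR adjusted p = 0.000525 and 0.0316). Cubn had 35.1, 44.9 and 42.5 CPM at 72 h, against 25, 7.86 and 20.8 CPM at 48 h, and replicate 2 was the lowest library of 48 h for Cubn, Dab2 and Srgn alike. Hnf4a, a defining factor of this lineage, fell by 1.12 log2 at 1.29, 1.43 and 1.19 CPM, against 3.53, 2.27 and 2.69 CPM; without replicate 1 of 48 h it did not pass (0.01 to 0.057 over 6 such fits). Gata6 averaged 1.25 CPM at 72 h and 2.05 CPM at 48 h and did not pass, Sox17 stayed under 1 CPM, and Ttr had 21 counts at 72 h and 0 at 48 h, which is at least 6.2-fold higher when 3 counts are taken as the floor of the 48 h group. Afp stayed under 1 CPM in every early library.

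Endothelial and blood genes summed to 47.4 to 51.0 CPM at 72 h and 87.8 to 92.9 CPM at 48 h. Most of that difference was Pecam1, an adhesion molecule that embryonic stem cells also carry, which fell by 1.30 ± 0.17 log2 at 29.6, 33.1 and 29.1 CPM, against 77.3, 77.8 and 71.9 CPM (edgeR adjusted p = 1.02e-05). Cdh5, Gata1 and embryonic globins stayed under 1 CPM. Among 7 measured fibroblast genes 4 rose and 0 fell (0 lower at an unadjusted p under 0.05, 0 by DESeq2), at a sum of 20.8 to 23.6 CPM at 72 h and 10.6 to 14.5 CPM at 48 h. Col1a1, Col3a1, Lum, Postn and Acta2 stayed under 1 CPM. The largest rise was that of Tagln, at 7.97 CPM on average at 72 h and 2.14 CPM at 48 h. Tagln is also counted among the contractile genes below. Of 12 neural genes 5 rose and 2 fell: Nes, an intermediate filament of progenitors, had 60.7, 63.7 and 57.4 CPM, against 18.9, 20.4 and 20.4 CPM. Nes rose by 1.61 ± 0.16 log2 (edgeR adjusted p = 4.27e-07), while Pax6 and Sox1 did not pass. Irx3, a homeobox gene, rose by 2.13 log2 at 3.72, 3.95 and 3.10 CPM, against 1.06, 0.552 and 0.801 CPM. Hes5, a Notch effector, had 24 counts at 72 h and 1 at 48 h, a ratio of 21.3 (95% counting interval 3.47 to 874). Germ cell genes gave 1 rise, Ddx4, and 3 falls, Prdm1, Prdm14 and Dazl, of 10. Trophoblast genes gave 1 rise and 2 falls of 7, with Elf5, Gata3 and Tpbpa under 1 CPM. Beside these counts, 20.7% of all tested genes rose and 21.9% fell. Of 6 somite and 4 two-cell-stage genes measured, 0 passed by edgeR and 0 had an unadjusted p under 0.05, and DESeq2 called 1 somite gene higher and 0 two-cell-stage genes.

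Notch genes rose without a fall, 7 of 13 (0 lower at an unadjusted p under 0.05, 0 by DESeq2). Hes1, an effector repressor of Notch, had 22.0, 22.4 and 22.6 CPM at 72 h, against 14, 13.3 and 15.3 CPM at 48 h. It rose by 0.66 ± 0.12 log2 (edgeR adjusted p = 0.000276), and Nrarp and Dll3 rose by 0.99 and 1.13. Dll1, Notch1 and Jag1 did not pass. Presomitic genes that passed were Dll3, Pcdh8 and Cyp26a1, 3 of 10; the defining factors Tbx6 and Msgn1 were under 1 CPM. In the guidance list, 8 of 20 rose and 3 fell. Its largest change was in Ntn1, netrin 1, at 25, 26.2 and 26.0 CPM, against 94.1, 81.8 and 95.4 CPM, a fall of 1.81 ± 0.14 log2 (edgeR adjusted p = 4.39e-08).

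Metabolic and stress lists moved modestly. Atf4 targets, which supply amino acids under stress, fell in 11 of 16 cases and rose in 1 (Phgdh, which lost its call in 5 of 6 fits without 1 library, at 0.0454 to 0.121), with a median log2 fold change of -0.18; on log2(FPKM + 1) 4 fell and 1 rose. Asns, asparagine synthetase, was at 282, 277 and 272 CPM, against 408, 404 and 401 CPM. The groups did not overlap, and Asns fell by 0.55 ± 0.07 log2 (edgeR adjusted p = 1.59e-05). Of 20 glycolysis and hypoxia genes 6 rose and 2 fell. Slc2a1, the glucose transporter GLUT1, had 270, 265 and 266 CPM at 72 h, against 109, 105 and 113 CPM at 48 h. It rose by 1.30 ± 0.18 log2 (edgeR adjusted p = 1.79e-05), while the kinases Pfkp and Hk2 fell by 0.78 and 0.26 and lactate dehydrogenase, Ldha, rose by 0.43. Sterol synthesis gave 5 rises and 2 falls of 20, all under 0.30 log2, where 20.7% of all tested genes rose and 21.9% fell. In the proliferation list 9 of 16 fell and 2 rose. The falls were replication genes such as Ccne2, Pcna and Mcm6 (log2 fold changes -0.45, -0.32 and -0.26), and the mitotic genes Mki67, Plk1 and Aurka did not pass. This list summed to 5119 to 5252 CPM at 72 h, and of all tested genes above 100 CPM 43.7% fell. Among 13 p53 response genes 3 rose and 4 fell, beside 20.7% and 21.9% of all tested genes. That order reversed to 4 rises and 3 falls with total counts or with no filter, and to 3 rises and 0 falls in each fit of FPKM. Jun, an immediate early gene, had 8.98, 8.88 and 8.64 CPM, against 1.64, 1.47 and 1.66 CPM, and rose by 2.46 ± 0.15 log2 (edgeR adjusted p = 1.45e-09). Fos, Egr1 and Ier2, which respond to handling as Jun does, did not pass. The 7 mitochondrially encoded genes measured gave 0 calls by edgeR and 0 by DESeq2, and 1 was lower at an unadjusted p under 0.05.

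The largest rises among genes of at least 5 CPM were Spon1, Tubb4a, Jun, Marveld3, Fignl2, Ttbk1, Apob, Nrk, Car4 and Rem2, and all of them were without overlap. Spon1, which encodes the extracellular protein F-spondin (chromosome 7, 113765998 to 114043370 in mm10), had 5.46, 6.15 and 5.36 CPM at 72 h, against 0.338, 0.675 and 0.629 CPM at 48 h. It rose by 3.39 ± 0.28 log2 (edgeR adjusted p = 5.35e-08). Tubb4a, a β-tubulin (chromosome 17, 57080066 to 57087782), had 13.1, 10.8 and 11.4 CPM, against 1.40, 1.41 and 1.6 CPM. It rose by 2.99 ± 0.17 log2 (edgeR adjusted p = 5.76e-10), to 11.8 CPM on average, still below the 17.4 CPM of untreated gastruloids. Car4, a carbonic anhydrase, had 39.9, 38.5 and 39.1 CPM, against 7.78, 8.72 and 9.33 CPM (log2 fold change 2.19, edgeR adjusted p = 8e-09), where the untreated group had 50.5 CPM. Marveld3, a protein of tight junctions, rose by 2.41 log2, and Apob, the apolipoprotein of chylomicrons and low-density lipoprotein, by 2.27.

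The largest falls were Cdx1, Rpl39l, Arl14epl, Accsl, Trpm1, Sult6b1, Nr5a2, Jam2, Zp3 and Tgfbr3, also without overlap. Tgfbr3, the TGF-β co-receptor betaglycan, had 9.47, 10.1 and 8.46 CPM at 72 h, against 39.4, 37.8 and 42.2 CPM at 48 h. It fell by 2.08 ± 0.18 log2 (edgeR adjusted p = 1.25e-07), toward the 4.76 CPM of untreated gastruloids. Trpm1, a cation channel, had 2.38, 2.00 and 1.73 CPM, against 11.8, 11.7 and 9.61 CPM, and Jam2, a junctional adhesion molecule, 3.57, 4.11 and 4.23 CPM, against 17.2, 15.4 and 19.2 CPM. Both fell, by 2.43 and 2.12 log2 (edgeR adjusted p = 7.94e-08 and 1.54e-06). Zp3, which encodes a protein of the egg coat, and Rpl39l, a ribosomal protein paralog known from the testis, fell by 2.10 and 2.55 log2. Reads of Rpl39l may be shared with the near-identical Rpl39, so its value is uncertain.

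The day after the control pulse, 96 h over 72 h, is the matched step in the other arm, at an age a day later. For 7146 genes the change differed between the arms (edgeR test of the difference), with 3659 more positive in the early arm (22.8%) and 3487 more negative (21.7%). Wnt target genes are a clear case. Axin2 changed by -0.57 log2 in the early arm and by 0.31 in the control arm, a difference of -0.87 ± 0.08 (edgeR adjusted p = 1.78e-07). For Sp5 the changes were -1.05 and 0.92 (difference -1.98 ± 0.23, edgeR adjusted p = 3.5e-06), and for Cdx2 they were -2.16 and 3.54 (difference -5.70 ± 0.57, edgeR adjusted p = 3.09e-07). T fell in both, by 0.72 and 0.75 log2, though at 24.7 CPM in early gastruloids of 72 h and 625 CPM in controls of 96 h. Its difference of 0.03 ± 0.23 did not pass (edgeR adjusted p = 0.943).

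Formative and epithelial genes also went opposite ways. Pou3f1 changed by 1.35 in the early arm and -1.78 log2 in the control arm, and Otx2 by 0.56 and -3.55. The differences were 3.14 ± 0.16 and 4.11 ± 0.30 (edgeR adjusted p = 6.76e-11 and 5.13e-09). Cldn7 changed by 1.92 and -2.61 log2 (difference 4.53 ± 0.20, edgeR adjusted p = 7.06e-12). For 12 of the 17 formative genes the change was more positive in the early arm and for 2 more negative; for the 18 epithelial genes these counts were 12 and 2. Fn1 changed by -1.17 in the early arm and by 2.81 log2 in the control arm (difference -3.98 ± 0.35, edgeR adjusted p = 4.9e-08), and 7 of 12 mesenchymal genes were more negative in the early arm and 0 more positive. Of the 17 naive genes 10 were more negative in the early arm and 1 more positive. Nr5a2 changed by -2.13 and 0.13 (difference -2.26 ± 0.23, edgeR adjusted p = 3.04e-07), from a control level of 2.86 CPM at 72 h. Esrrb fell in both arms, by 1.66 and 1.64 log2, with a difference of -0.02 ± 0.17 that did not pass (edgeR adjusted p = 0.926). Nanog, which did not pass in the early arm, fell by 3.59 log2 in the control arm (difference 3.58 ± 0.17, edgeR adjusted p = 1.97e-11).

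**Figure D4:**
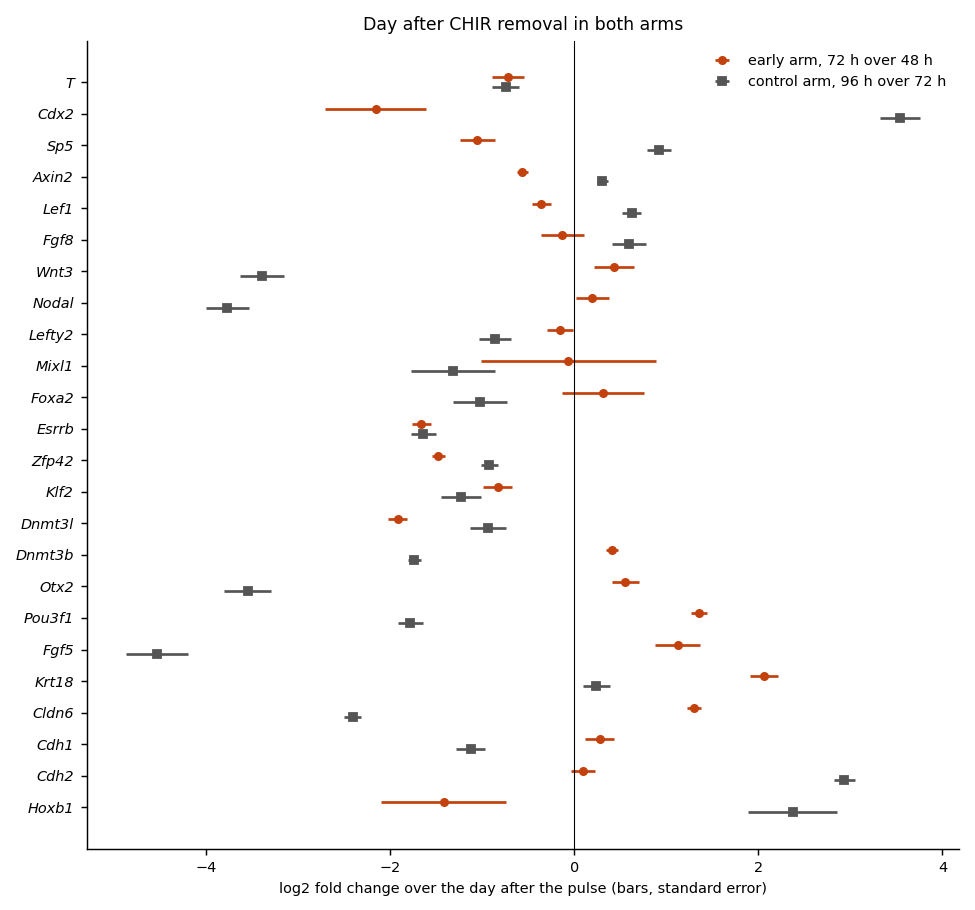
Log2 fold change ± SE of 24 genes over the day after each pulse, with the early arm (72 h over 48 h, orange, upper mark) and the control arm (96 h over 72 h, grey square, lower mark). Axin2, Sp5 and Cdx2 lie below 0 in the early arm and above it in the control arm, Pou3f1, Otx2 and Cldn6 the other way round, and T and Esrrb lie at like values in both.

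Over the same hours, 48 to 72 h, the control arm was under CHIR. The change differed for 7437 genes, 3656 of them more positive in the early arm (22.8%) and 3781 more negative (23.6%). Axin2 changed by -0.57 in the early arm and 4.09 log2 in the control arm (difference -4.65 ± 0.09, edgeR adjusted p = 2.07e-16), and T by -0.72 and 10.81 (difference -11.53 ± 0.35, edgeR adjusted p = 2e-14). Of the 16 streak genes 12 were more negative in the early arm and 0 more positive (edgeR). Tfcp2l1 changed by -2.01 and 2.14 log2, and Esrrb by -1.66 and 0.73 (differences -4.15 ± 0.13 and -2.40 ± 0.16, edgeR adjusted p = 4.75e-14 and 1.11e-09). Pou3f1 changed by 1.35 and -4.09 log2 and Foxd3 by 0.77 and -6.63 (differences 5.44 ± 0.14 and 7.40 ± 0.25, edgeR adjusted p = 2.52e-15 and 1.04e-13). Krt18 changed by 2.06 and -1.76 (difference 3.82 ± 0.21, edgeR adjusted p = 4.9e-11). Nodal, Lefty1 and Eomes, which were called in the control arm alone, had differences of -1.52, -1.40 and -3.76 log2 (edgeR adjusted p = 0.000133, 0.000568 and 3.09e-05).

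Levels at early 72 h can be placed beside the untreated gastruloids of 48 h and the early ones of 96 h; these contrasts share libraries with the step described here. Axin2, T and Esrrb were all higher at early 72 h than in the untreated group, by 2.68, 5.40 and 1.95 log2, after being higher by 3.25, 6.12 and 3.62 at early 48 h. Pou3f1 was lower by 1.6 log2 at early 72 h and by 2.96 at early 48 h, and Krt18 by 0.92 and 2.98. For Dnmt3l, Zic2, Cldn7 and Crb3 the early 72 h group differed from the untreated one by -0.02, -0.02, 0.21 and -0.01 log2, and none of these passed (edgeR adjusted p = 0.879, 0.841, 0.172 and 0.955). From 72 to 96 h without CHIR, T was higher by 4.49 ± 0.18 log2 and averaged 554 CPM at 96 h, and Axin2 was higher by 0.54 ± 0.06 (edgeR adjusted p = 2.81e-11 and 2.81e-06). Both thus had their lowest level in the early arm at 72 h. Esrrb and Dnmt3l went on lower, by 0.72 and 1.70 log2, and Krt18 went on higher by 0.50.

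**Figure D5:**
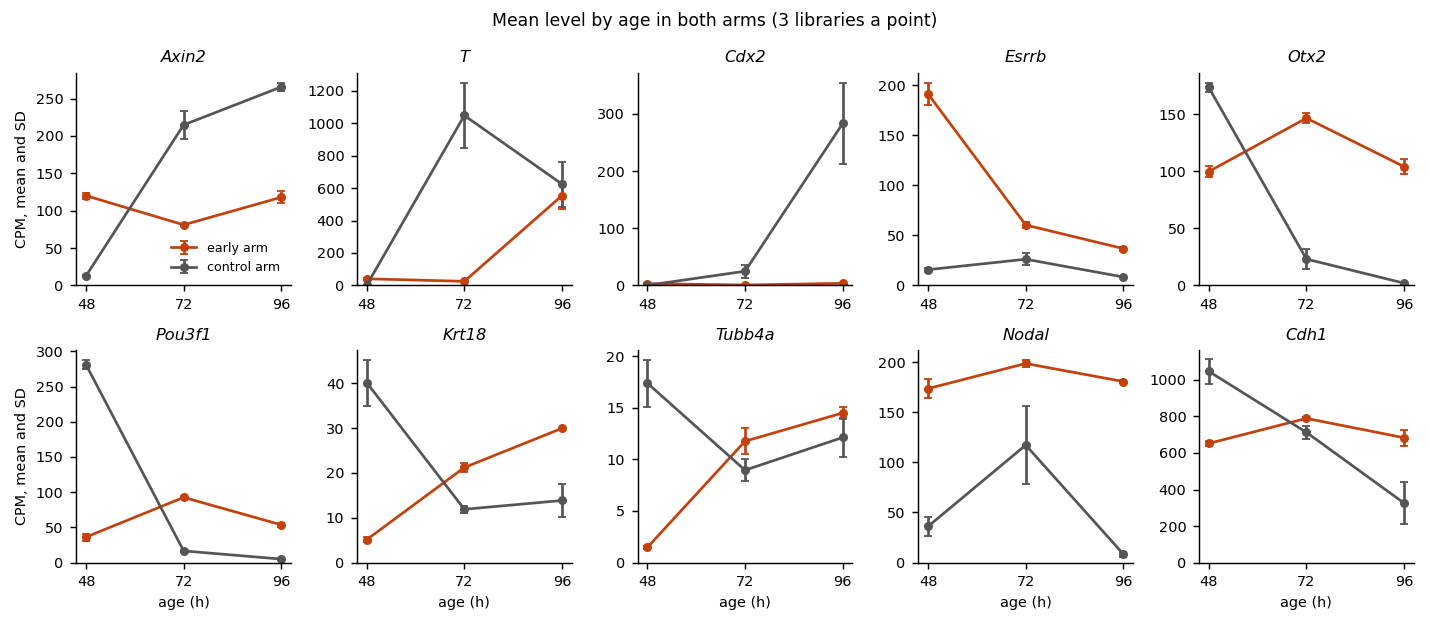
Mean ± SD of 3 libraries in CPM at 48, 72 and 96 h for 10 genes in the early arm and the control arm. In the early arm Axin2 and T are lowest at 72 h, Esrrb is highest at 48 h and lowest at 96 h, Pou3f1 peaks at 72 h, and Nodal and Cdh1 change little beside the control arm.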

How the data were processed

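The submitters' processing notes name cutadapt 4.0, STAR 2.7.8a, Cufflinks 2.2.1 and the genome build mm10. One table deposited by the authors holds raw whole-number read counts of 55385 genes. The other table deposited by the authors holds FPKM of 55468 genes, which scale reads by gene length and depth. Library kits were stranded, per the labels' protocols, but how reads were assigned by strand or to several genes is not stated there, so overlapping genes are uncertain. The protocol names a pair of library preparation codes without assigning libraries, so that batch could not be fitted.

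Counts were filtered with filterByExpr, scaled by TMM and fitted over all 18 libraries, with 1 coefficient for each of 6 groups, by edgeR's quasi-likelihood test (edgeR 4.0.16, limma 3.58.1, R 4.3.3). All p-values are 2-sided and adjusted by Benjamini-Hochberg over 16041 genes, and called means an adjusted p under 0.05. The change in each arm and the difference between arms come from this fit. On simulated counts of this comparison (15291 genes) the procedure called 90% of 100 genes changed 2-fold, 100% of 100 changed 4-fold and 9 of 15091 unchanged genes. The changed genes were drawn from those above 1 CPM, with as many rises as falls, and no library was set apart. The rates do not carry over to lower levels or to data where 42.6% of genes are called, as here. Against 0 counts a fold used a floor of 3 counts over the group; ratios of low counts have exact 95% intervals that cover counting error only. Coordinates are 1-based, from the deposited FPKM table, and promoters are RefSeq's for GRCm38.p6. Tables and figures used Python 3.11.15, pandas 2.3.3 and matplotlib 3.10.9.

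The step, the 41 gene lists (523 names, 522 matched) and the panel of 47 genes were chosen with earlier results of these data known. The genes named are the 10 largest rises and 10 largest falls with at least 5 CPM and no overlap, up to 4 members of a list with the lowest adjusted p and members that moved against their list, the panel, and the 5 largest differences from the control arm in each direction. Some members are counted in their lists but not reported here by name. Other list members are named as parts of their list's count, chosen after their values were seen. Replicate numbers gave no clear pairing of the early samples. Correlations of deviations between early libraries were 0.0187 to 0.0535 for the same number and -0.0435 to 0.0193 for different numbers. Control libraries were not checked in this way. Alternatives were other scalings (DESeq2 size factors, total counts), no filter or a filter of 1 CPM in 3 libraries, DESeq2 1.42.0, a block for replicate number, fits restricted to the groups compared, limma-trend on FPKM with a pseudocount of 0.1 or 1 before log2, a 2-fold threshold, each early library left out and a fit without the 3 control libraries numbered 3. Of these, the scaling by total counts was not planned.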

Additional observations from a re-analysis of the deposited data

Results flagged for a closer look

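The change over this step differed from that of the control day after its pulse for 7146 genes, and from that of the control arm over the same hours for 7437 genes, by the test of the difference in edgeR's fit. Genes of the panel whose called changes went in opposite directions in the 2 arms, and the largest differences by rule, are given here as log2 differences, early arm minus control arm. Against the control day after its pulse, Wnt targets and caudal genes were more negative in the early arm: Axin2 -0.87, Sp5 -1.98, Lef1 -0.98, Notum -2.44 and Cdx2 -5.70, and likewise Sox2 -1.76 and Prdm14 -3.68. More positive there were the formative genes Fgf5 5.66, Otx2 4.11 and Pou3f1 3.14, the claudin Cldn6 3.71 and the methyltransferase Dnmt3b 2.15, although 6 of the 10 DNA methylation enzymes were more negative in the early arm and 1 more positive. Gastruloids of the control arm were a day older at each end of this step, so that age and arm cannot be told apart. The other largest differences were Eomes 5.36, Grm6 5.32, Calcr 5.28 and Mmp25 5.20 on the positive side. On the negative side they were Aldh1a2 -9.17, Slc38a8 -8.56, Cdx4 -8.56, Gprc5a -7.23 and Hes3 -6.62. These last 5 genes averaged under 3 CPM in both early groups, and at most 1.55 CPM in control gastruloids of 72 h, so the size of each rests on the control group of 96 h.

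Over the same hours as the control pulse, 48 to 72 h, the early arm was more negative for Axin2 at -4.65, Lef1 -0.77, Notum -4.45, T -11.53, Cdx2 -9.49 and Hoxb1 -10.46, and for the naive factors Tfcp2l1 -4.15, Esrrb -2.40, Klf2 -1.58 and Tbx3 -3.27. It was more positive for Fgf5 at 1.90, Pou3f1 5.44, Otx2 3.45, Dnmt3b 2.69, Cldn6 1.86, Krt18 3.82 and Fgf4 5.02. The largest positive differences were Foxd3 7.40, Spon1 7.22, Car4 5.68, Ttbk1 5.63 and Irs4 5.52. Foxd3, a repressor of the epiblast, averaged 30.5 CPM at early 72 h and 17.8 CPM at early 48 h, and 0.624 CPM in controls of 72 h and 63.6 CPM in untreated controls. The ages are the same in both arms here, while CHIR during the step and exposure to CHIR before it differ together and cannot be told apart.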

How the results depend on the processing

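The count of 6837 called genes stayed within 1.5 times of itself under every alternative except the 2-fold threshold, at 5626 to 5934 without 1 library and 4938 to 8645 otherwise. Leaving out a library gave 2733 to 2881 rises and 2893 to 3053 falls. A threshold of 2-fold left 1380 called genes, 931 rises and 449 falls, and 2705 and 2887 genes for the differences from the control day after its pulse and from the control step of 48 to 72 h. The falls numbered 1582 on log2(FPKM + 1), 1484 on log2(FPKM + 0.1), 1517 over all genes and 2170 with total counts; the cause was not tested, and 1106 tested genes are listed at 0 FPKM in all early libraries. A replicate block gave 7072 called genes in the fit of all libraries and 8645 with only the groups compared, against 8554 without the block; the samples share only a number. Of 3778 values of 211 named genes, 3433 kept their direction and side of the threshold, 257 lost the call, 60 gained it and 3 reversed; 25 more, of 5 genes never called where the sign differed (Nanog, Fgf8, Mixl1, Msgn1 and Meox1), changed sign. The Lss log2 fold change of -0.13 was 0.0248, 0.0241 and 0.0241 in the 3 fits of FPKM, none called (adjusted p 0.767, 0.772 and 0.855), where all its alternatives spanned 0.00839 to 0.855. The Tdgf1 early_step_minus_control_step_48_72 difference was -0.318 without the 3 control libraries numbered 3. With 3 libraries a group, genes under about 1 CPM allow only large changes to be called.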

Other observations

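Several gene families outside the lists were counted by the same edgeR test; they were chosen after their values were seen, so only counts are given and no test. Genes of class I and II antigen presentation rose in 22 of 35 cases and fell in 2, with a median log2 fold change of 0.83. Of tested genes with a mean of 1 to 5 CPM 26.6% rose, and of those of 5 to 25 CPM 30.8%. Psmb8, a subunit of the immunoproteasome, averaged 3.37 CPM at 72 h and 0.655 CPM at 48 h. Tap2, which carries peptides into the endoplasmic reticulum, averaged 5.17 and 1.27 CPM, B2m, the light chain of class I molecules, 13.5 and 6.87 CPM, and the heavy chain H2-K1 50.6 and 28.7 CPM at the same ages. Interferon-inducible GTPases, which act against microbes inside cells, rose in 6 of 10 cases. Other interferon response genes were mixed, with 6 rises and 3 falls of 21, a share of rises of 28.6%. The RNA sensor Ddx58 and the antiviral synthetase Oas1a fell by 1.34 and 1.31 log2. At the end of the pulse, early 48 h against untreated 48 h, 19 of the 35 antigen presentation genes were lower and 2 higher. In that contrast 621 of 2879 tested genes with a mean of 1 to 5 CPM were lower and 522 higher. Of 3724 genes of 5 to 25 CPM, 845 were lower and 934 higher. Over the control day after its pulse, 96 h over 72 h, 20 of the 35 antigen presentation genes rose and 4 fell. In that step 10 of the 10 interferon-inducible GTPases rose, and other interferon response genes gave 12 rises and 5 falls of 21. Of the 2879 genes of 1 to 5 CPM 761 rose there, and of the 3724 of 5 to 25 CPM 1232.

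On mouse chromosome 4, from 145510759 to 147848366 in mm10, 16 of 19 tested genes of the zinc finger cluster that holds Rex2 fell, with a median log2 fold change of -0.82. Of 363 numbered Zfp genes elsewhere, 119 fell and 46 rose. In this cluster Zfp600 averaged 17.8 CPM at 72 h and 43.2 CPM at 48 h, Zfp978 26.5 and 64.2 CPM, and Zfp990 277 and 439 CPM. In the same cluster 14 genes were higher at the end of the early pulse than in untreated gastruloids, and 16 fell over the day after the control pulse, 96 h over 72 h. Of the 363 numbered Zfp genes elsewhere, 86 were higher in the former contrast and 86 fell in the latter. Members of the cluster are close paralogs, and how reads that fit several of them were counted is not given in the sources used here, so the 16 falls are not 16 independent measurements.

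The other families counted included the Platr non-coding RNAs, known from a screen for transcripts of the pluripotent state, of which 12 of 17 fell; Platr14 averaged 24.1 CPM at 72 h and 64.5 CPM at 48 h. Potassium channel genes rose in 24 of 61 cases and fell in 1, and voltage-gated calcium channel genes in 10 of 18 and 1. Genes of contractile filaments and targets of serum response factor rose in 12 of 18 cases and fell in 2. Over all tested genes 20.7% rose and 21.9% fell. Of the 2879 with a mean of 1 to 5 CPM, 767 rose and 336 fell. Of the 3724 with 5 to 25 CPM, 1148 rose and 558 fell. Over the control day after its pulse, 96 h over 72 h, 18 potassium channel genes rose and 17 fell. In that step 3 calcium channel genes rose and 7 fell. Of the contractile and serum response factor genes 8 rose and 5 fell there, and of the Platr RNAs 1 and 7. Meg3, Rian and Mirg, non-coding RNAs of the imprinted Dlk1-Dio3 region, all rose.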
